A study of Mus musculus with 4 samples.

Results

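Imprinted genes are transcribed from 1 parental allele, and the genes described here are Peg3, Igf2, Ndn and Ipw, expressed from the paternal allele, and Cdkn1c and Grb10, expressed from the maternal one. All rows of the deposited region table carrying these 6 gene symbols were taken, which gave 19 regions of 6697 distinct regions in all, and 6 genes of 3882. The paternally expressed genes had 14 of the regions and the maternally expressed ones 5. The table came from an m6A-seq study, in which RNA carrying N6-methyladenosine is pulled down with an antibody and sequenced. It compared Gsk-3 DKO mouse embryonic stem cells, which lack both forms of the kinase Gsk-3, with wildtype (WT) cells. Both groups were feeder-free cells of strain E14K, grown on gelatin and then for 14 days without LIF, the cytokine that maintains self-renewal, before RNA was taken, and neither label names a clone. The series has 4 samples, an m6A and an input library for each genotype, and each group is 1 library.

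At an imprinted locus, a stretch of DNA that is methylated on 1 parental chromosome decides which allele is read. Several imprinted genes act on growth of the embryo and placenta: Igf2 is a growth factor, Cdkn1c is an inhibitor of cyclin-dependent kinases, and Grb10 is an adaptor that dampens signalling from the insulin and IGF receptors. Methylation of adenosine in mRNA is laid down by a nuclear methyltransferase complex, and it is concentrated in long internal exons and around stop codons. Earlier work on Gsk-3 DKO embryonic stem cells reported less DNA methylation at imprinted loci, which is given here as background only.

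The listed counts are reads per region in Gsk-3 DKO and in WT, and folds are WT over Gsk-3 DKO after the authors' constant of 0.825. For regions with 0 Gsk-3 DKO reads, 3 reads were put in place of 0 as a floor for that library, and "at least" marks folds set by it. The exact 95% limit of 0 reads is higher, at 3.69, and these folds would be smaller with it. Brackets after counts, folds and shares of reads hold exact 95% intervals. These cover counting error only, because PCR reads without molecular identifiers are not independent molecules. After a share of regions, the exact 95% interval treats regions as independent, although several belong to the same gene. After a median over genes, brackets hold the lowest and highest gene value. With 1 library per group there was no test, and every statement compares these libraries. Over all listed regions the counts summed to 27072 in Gsk-3 DKO and 573971 in WT, and 0 regions had a Gsk-3 DKO count at or above the WT count. A lower count in Gsk-3 DKO is therefore shared by every entry of the table and is no result about imprinted genes. Input counts were not used, so fewer copies of an RNA and less m6A on it cannot be told apart, nor can fewer cells of a type and less RNA per cell.

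One of the Igf2 regions lies across a transcription start, and its sequence is shown here because the deposited annotation calls that region an intron. The region, chr7:142658627-142658958, spans an Igf2 start that RefSeq places at base 142658804 on the minus strand. It begins 154 bases before that start and ends 178 bases into the transcript. The stretch below runs from 250 bases before the start through the first 25 transcribed bases (chr7:142658780-142659054, GRCm38.p6, minus strand, read 5′ to 3′), and the capitals mark the 179 bases that lie inside the region.

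Igf2 start: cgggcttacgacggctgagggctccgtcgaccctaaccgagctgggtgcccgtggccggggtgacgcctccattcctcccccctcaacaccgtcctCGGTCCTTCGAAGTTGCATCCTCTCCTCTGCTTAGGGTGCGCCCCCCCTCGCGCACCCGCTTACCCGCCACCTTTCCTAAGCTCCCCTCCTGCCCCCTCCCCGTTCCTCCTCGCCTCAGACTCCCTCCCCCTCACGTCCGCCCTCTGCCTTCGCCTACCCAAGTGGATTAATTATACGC

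The full RefSeq window around this start, 300 bases long, held 24 CG dinucleotides, against a median of 7 over 32851 such windows. The pentamer GGACT, a common form of the m6A consensus, was on neither strand of the window, whereas 45.5% of all windows held it on at least 1 strand. Of the window's 300 bases, 250 lie before the start. It covers 204 of the region's 332 bases, and the rest of the region was not searched, so whether the region holds the motif is not known. The other 3 Igf2 windows overlapped no listed region. Nor did any window of Peg3, Ndn, Ipw, Cdkn1c or Grb10 that was found in the table of starts, where Cdkn1c had no entry.

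Igf2, a fetal growth factor, had a single read in Gsk-3 DKO over its 3 regions, all on chromosome 7. The start-spanning region had 1 read in Gsk-3 DKO (0.0253 to 5.57) and 141 in WT (119 to 166), a 116-fold difference (20.5 to 4626). Its neighbour at chr7:142655604-142655804, which overlaps a coding exon and an intron, had 0 reads in Gsk-3 DKO and 41 in WT, at least 11.3-fold lower. The region at chr7:142654276-142654430, of the same annotation, had 0 reads in Gsk-3 DKO and 54 in WT, at least 14.8-fold lower. Summed, Igf2 had 1 read in Gsk-3 DKO and 236 in WT, a fold of 195 with an interval of 34.6 to 7720. The first 2 of these regions were also listed as upstream of Igf2as, an antisense transcript, and of Mir483, a microRNA inside Igf2. The Mir483 hairpin itself lies 493 and 607 bases from the nearest Igf2 regions and overlaps none. Igf2as had 1 further region of its own, with 2 reads in Gsk-3 DKO and 35 in WT. How reads were assigned to strands is not given in the sources used here, so sense and antisense reads cannot be told apart at this locus.

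Peg3, a zinc finger transcription factor, had 9 regions on chromosome 7, the most of any of the 6 genes, and kept reads in 7 of them in Gsk-3 DKO. Summed over its regions it had 66 reads in Gsk-3 DKO and 1116 in WT, a 13.9-fold difference (10.9 to 18.2). All but 1 of the regions lay within 4471 bases at the 3′ side of the gene, at deposited distances of 18582 to 22884 bases from the transcription start. These 8 were annotated to coding sequence, alone or with an intron or the 3'UTR. The deepest, chr7:6707805-6708391, had 52 reads in Gsk-3 DKO (38.8 to 68.2) and 454 in WT (413 to 498), a 7.20-fold difference (5.40 to 9.79).

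The folds along Peg3 were unequal. The region chr7:6708862-6709311, nearer the start in the same coding stretch, had 4 reads in Gsk-3 DKO and 252 in WT, a 52.0-fold difference (20.0 to 192), and its interval does not overlap that of the deepest region. Between those regions, chr7:6708512-6708700 had 3 reads in Gsk-3 DKO and 46 in WT (12.6-fold, 4.07 to 63.6), an interval that overlaps both. The deepest region held 78.8% of Peg3 reads in Gsk-3 DKO (67.0 to 87.9) and 40.7% in WT (37.8 to 43.6). Without it, the remaining 8 regions had 14 reads in Gsk-3 DKO and 662 in WT, a 39.0-fold difference (23.1 to 71.7). Per base, the deepest region had 0.0886 reads in Gsk-3 DKO and 0.773 in WT, while the region at 6708862 had 0.00889 in Gsk-3 DKO and 0.560 in WT.

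**Figure D1:**
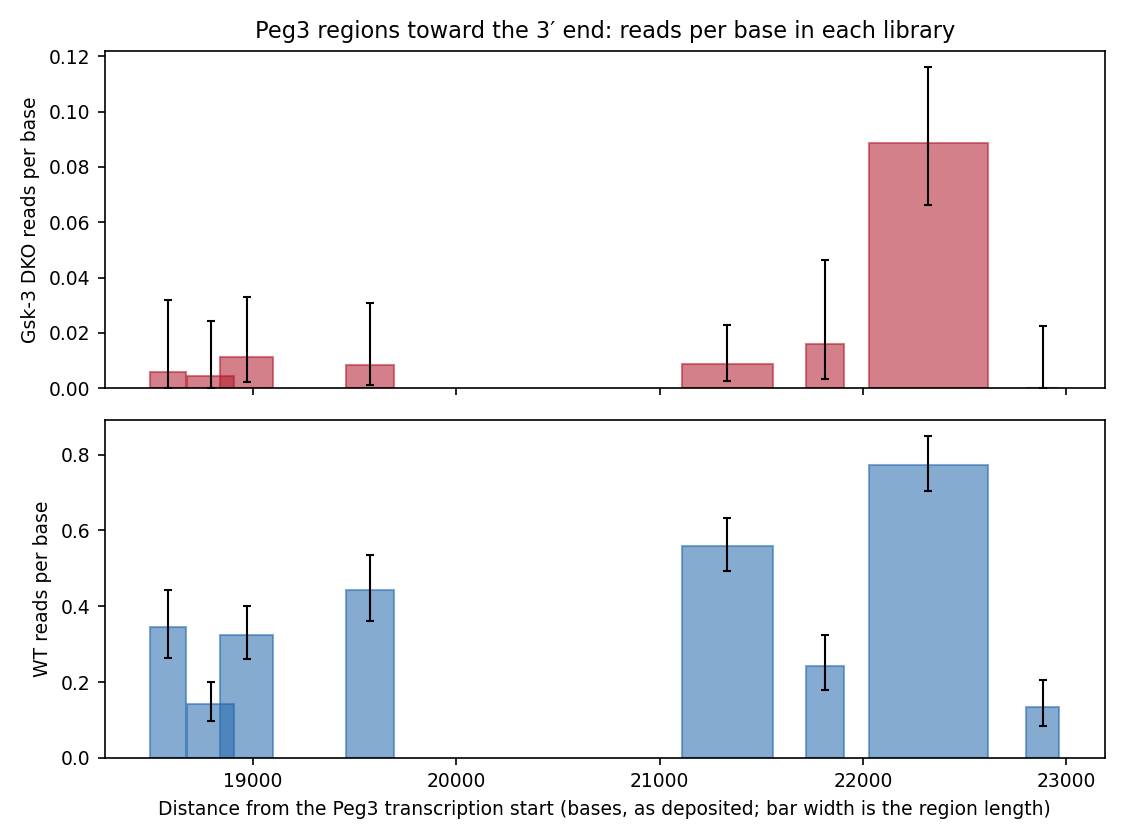
Reads per base in the 8 Peg3 regions toward the 3′ end, Gsk-3 DKO above and WT below, against the deposited distance from the transcription start in bases. Bars start at 0, are as wide as the region and carry exact 95% Poisson intervals of 1 library each; 1 region stands out in Gsk-3 DKO at 0.0886 reads per base, whereas in WT several regions lie between 0.3 and 0.8.

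The other Peg3 regions had few Gsk-3 DKO reads. The region chr7:6710724-6710958 had 2 reads in Gsk-3 DKO and 104 in WT (42.9-fold, 11.6 to 359), and chr7:6711318-6711582 had 3 in Gsk-3 DKO and 86 in WT (23.6-fold, 7.82 to 117). Next to it, chr7:6711512-6711742 had 1 read in Gsk-3 DKO and 33 in WT, and chr7:6711751-6711924 had 1 in Gsk-3 DKO and 60 in WT. The regions at 6711318 and 6711512 overlap by 71 bases, so reads may be counted in both. The lone region further upstream, chr7:6717721-6717914, had 0 reads in Gsk-3 DKO and 59 in WT, at least 16.2-fold lower. At the stop codon side, chr7:6707454-6707616, which overlaps coding sequence and 3'UTR, had 0 reads in Gsk-3 DKO and 22 in WT (at least 6.05-fold lower). That last region is also listed in the 5'UTR of the antisense gene Peg3as, and which transcript gave its reads was not tested.

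Ndn encodes necdin, a growth suppressor of neurons in the MAGE protein family. It had 1 region, in its coding exon at chr7:62349062-62349399, with 0 reads in Gsk-3 DKO and 62 in WT (47.5 to 79.5), at least 17.0-fold lower at the floor of 3 reads. RefSeq also places the lncRNA gene Gm32061 over this region.

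Ipw, a long noncoding RNA of the imprinted Prader-Willi region, carried most of the reads of the 6 genes. Its only region, chr7:59662193-59662558, was annotated as an intron, 16503 bases from the transcription start. It had 130 reads in Gsk-3 DKO (109 to 154) and 2303 in WT (2210 to 2399), a 14.6-fold difference (12.2 to 17.6). Among all 6697 regions it was number 10 by Gsk-3 DKO count, number 8 by WT count and number 9 by WT reads per base. Per base it had 0.355 reads in Gsk-3 DKO and 6.29 in WT, against a WT median of 0.219 per base over all regions. It held 65.7% of the reads of the 6 genes in Gsk-3 DKO and 57.4% in WT. RefSeq places the long host transcript Snhg14 over the same bases, so the reads cannot be assigned to Ipw alone.

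Of the maternally expressed genes, Cdkn1c, which encodes the cell cycle inhibitor p57, had 3 regions on chromosome 7. In the coding exon region chr7:143459805-143460259 it had 1 read in Gsk-3 DKO and 125 in WT (104 to 149), a 103-fold difference (18.2 to 4104). The region nearer the start, chr7:143460417-143460591, had 0 reads in Gsk-3 DKO and 39 in WT, at least 10.7-fold lower. The region reaching the 3'UTR, chr7:143458942-143459177, had 0 in Gsk-3 DKO and 41 in WT, at least 11.3-fold lower. The sum was 1 read in Gsk-3 DKO and 205 in WT (169-fold, 30.0 to 6711), and at this depth the 3 regions cannot be ranked by fold.

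Grb10 had 2 regions on chromosome 11, at opposite ends of the gene, and 0 reads in Gsk-3 DKO in both. The region beside the start, chr11:12037059-12037306, which overlaps the 5'UTR and an intron, had 63 WT reads and was at least 17.3-fold lower in Gsk-3 DKO. The 3'UTR region, chr11:11933155-11933372, lies 104157 bases from the start and had 27 WT reads, at least 7.42-fold lower in Gsk-3 DKO. Together they had 0 reads in Gsk-3 DKO and 90 in WT, at least 24.7-fold lower. Which allele of Grb10 is read depends on the tissue: it is the maternal one in most tissues and the paternal one in neurons.

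**Figure D2:**
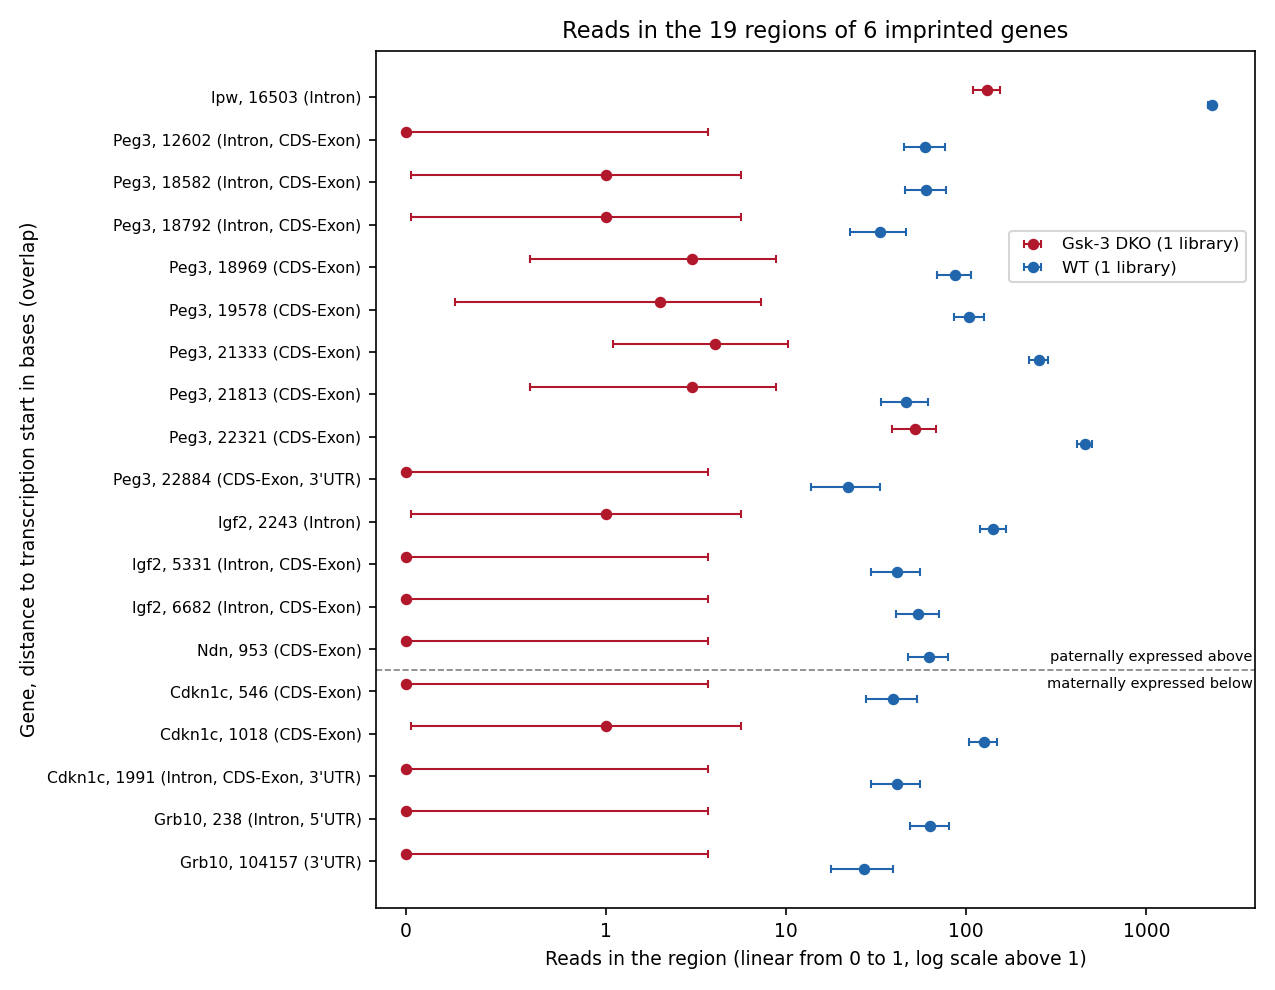
Reads in each of the 19 regions, Gsk-3 DKO in red above WT in blue, by gene, deposited distance from the transcription start and overlap. Points are counts of 1 library each with exact 95% Poisson intervals, on an axis that is linear from 0 to 1 and logarithmic above; Gsk-3 DKO counts lie between 0 and 4 in every region except those of Ipw (130) and Peg3 (52).

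Set side by side, the regions of the 6 genes were at least 10-fold lower in Gsk-3 DKO in 16 of 19 cases (84.2%), where 52.5% of all regions were. Of the 16, 7 had 0 reads in Gsk-3 DKO and pass by the floor of 3 reads, and with 3.69 in its place the count was 13 of 19. The Gsk-3 DKO count was 0 in 9 of the 19 (47.4%, 24.4 to 71.1), where it was 0 in 50.5% of all regions, so the share of empty regions is near the background. Both shares depend on read number. Of regions with 15 to 49 WT reads, 5 of 7 imprinted ones and 34.0% of all were at least 10-fold lower. With 50 to 99 WT reads these were 6 of 6 and 78.6%, with 100 to 199 reads 3 of 3 and 73.0%, and with 200 or more 2 of 3 and 72.1%. The median log2 of Gsk-3 DKO over WT, with a pseudocount of 0.5, was -5.53 over the 19 regions and -4.93 over all 6697.

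**Figure D3:**
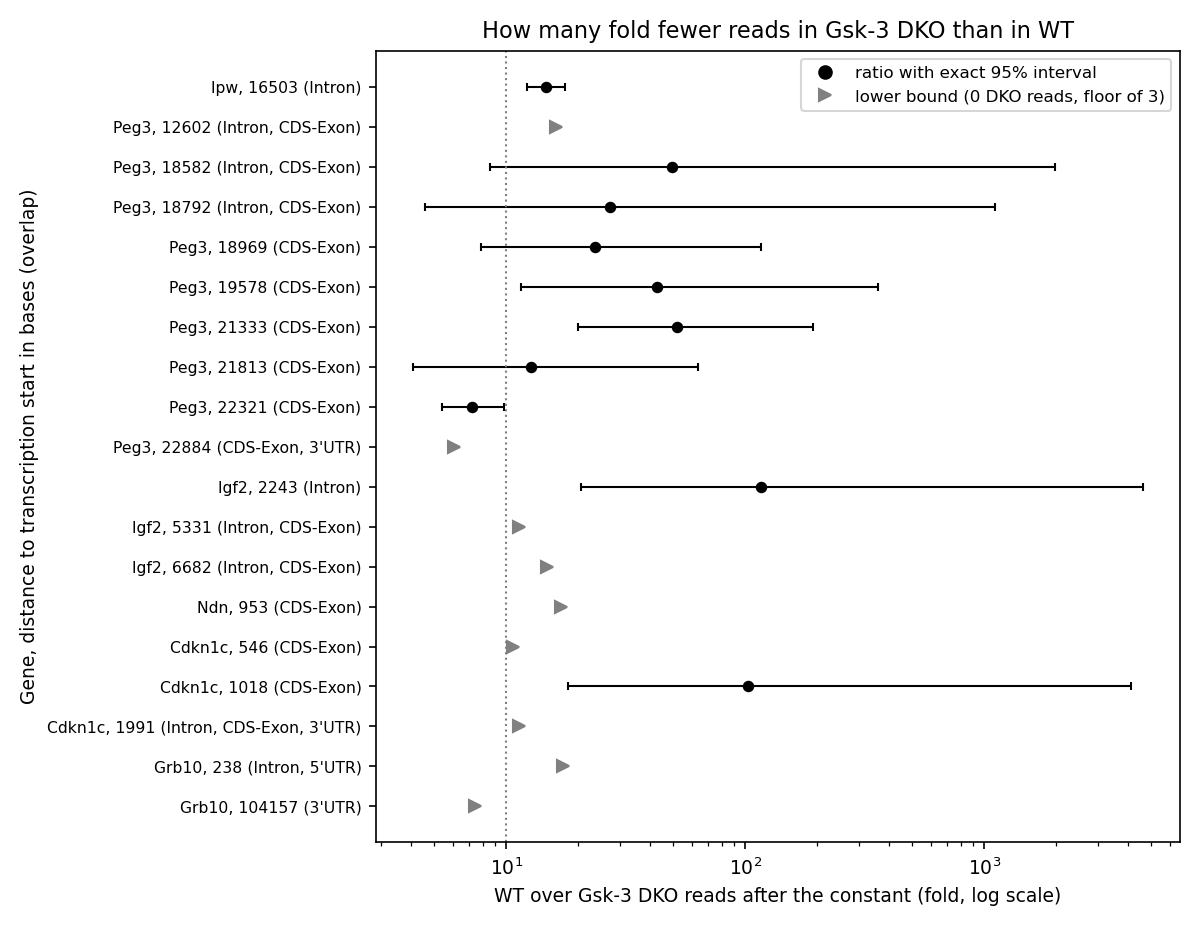
Fold of WT over Gsk-3 DKO reads after the constant, on a log axis, for the 19 regions. Circles with bars are ratios with exact 95% intervals, grey triangles are lower bounds for regions with 0 Gsk-3 DKO reads, and the dotted line marks 10-fold; the only circle left of the line is the deepest Peg3 region at 7.20-fold, with an interval that ends at 9.79.

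Exonic regions, those overlapping coding sequence or a UTR, made up 17 of the 19. Of these 9 had 0 reads in Gsk-3 DKO (52.9%, 27.8 to 77.0), against 36.1% of all 3732 exonic regions. By the deposited annotation, 1 region each of Igf2 and Ipw was intron-only. Both had Gsk-3 DKO reads (1 and 130), whereas 70.1% of all 1131 intron-only regions had none. These 2 had 141 and 2303 WT reads, far above the WT median of 35 for that class. The Igf2 one is the region across a RefSeq start shown above, so its intron label may not hold.

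With 1 value per gene, from its deepest region, 5 of the 6 genes were at least 10-fold lower in Gsk-3 DKO, where 55.6% of all genes were. Peg3 was the exception, at 7.20-fold in its deepest region, while its summed regions gave 13.9-fold. In 2 of the 6, Ndn and Grb10, the deepest region had 0 reads in Gsk-3 DKO, where 46.2% of all genes did. The log2 values of Gsk-3 DKO over WT ran in the order Grb10 (-6.71), Ndn (-6.69), Igf2 (-6.28), Cdkn1c (-6.11), Ipw (-3.86) and Peg3 (-2.84), and the median over all genes was -4.85. The first 4 differ by less than their counting error. In the deepest regions, Ipw and Peg3 lie apart from Igf2 and Cdkn1c. The fold intervals of Igf2 and Cdkn1c begin at 20.5 and 18.2, above the ends of the Ipw and Peg3 intervals. For Peg3 this holds for that 1 region. Its remaining 8 regions gave 39.0-fold (23.1 to 71.7), an interval that overlaps those of Igf2 and Cdkn1c. The lower bounds of Ndn and Grb10, 17.0-fold and 17.3-fold, fall inside the Ipw interval, so these genes cannot be set apart from Ipw. Rescaling so that regions with reads in both libraries centre on 0 shifts every log2 value up by 3.77, which puts Peg3 at 0.93 and leaves Ipw at -0.10 and the other 4 below -2.

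The genes with counts most like each member, by distance on log2 counts of both libraries in the deepest region, were as follows. Peg3 was nearest to Mrgpre (47 reads in Gsk-3 DKO, 444 in WT) and the glucose transporter gene Slc2a1 (59 in Gsk-3 DKO, 428 in WT). Ipw was nearest to Sfn (130 in Gsk-3 DKO, 2164 in WT), while the next gene, Basp1, had 141 in Gsk-3 DKO and 1520 in WT. Igf2 was nearest to Ifnar1, an interferon receptor subunit, and Kidins220, with 1 read each in Gsk-3 DKO and 142 and 140 in WT, and 3 genes lay within that distance. Cdkn1c was nearest to Atp8b1 and Cops8, each with 1 read in Gsk-3 DKO and 124 in WT. Among the genes compared, Ndn shared its counts exactly with 7, of which Aifm1 and Cactin come first by name, and Grb10 likewise with 9, Dmbx1 and Heatr7a first. This likeness rests on 2 libraries.

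**Figure D4:**
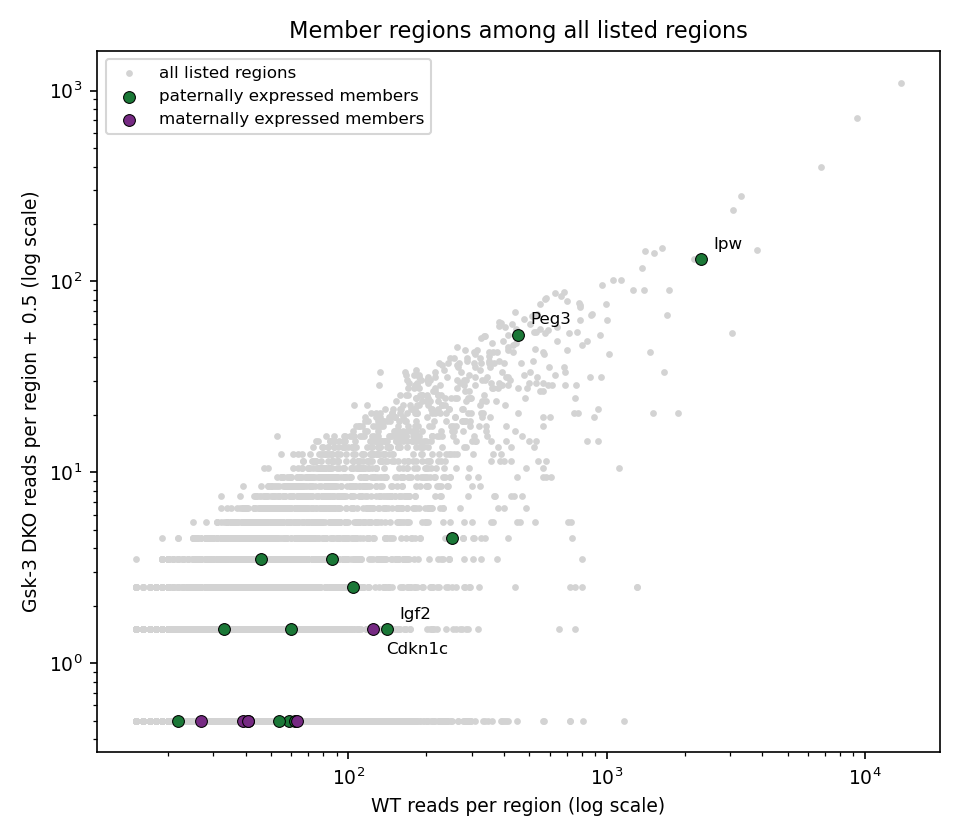
Gsk-3 DKO reads plus 0.5 against WT reads for all 6697 listed regions (grey) on log axes, with the 14 paternally (green) and 5 maternally (purple) expressed regions marked. Ipw and the deepest Peg3 region, at 130 and 52 Gsk-3 DKO reads, lie well above the rest of the marked regions, which have 0 to 4.

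Paternally and maternally expressed genes differed in their sums, and Peg3 and Ipw held nearly all reads that remained in Gsk-3 DKO. The 14 paternal regions had 197 reads in Gsk-3 DKO and 3717 in WT, a 15.6-fold difference (13.5 to 18.1). The 5 maternal regions had 1 read in Gsk-3 DKO and 295 in WT, a 243-fold difference (43.3 to 9642). Of the 198 Gsk-3 DKO reads of the 6 genes, 196 were in Peg3 and Ipw. With those genes set aside, Igf2 and Ndn had 1 read in Gsk-3 DKO and 298 in WT, a 246-fold difference (43.8 to 9740), next to that of Cdkn1c and Grb10. By gene, the median log2 of Gsk-3 DKO over WT was -5.07 over the 4 paternally expressed genes (-6.69 to -2.84) and -6.41 over the 2 maternally expressed ones (-6.71 to -6.11). The 2 ranges overlap, and the difference of 1.34 was 0.13 with Ipw left out. Within Gsk-3 DKO, the share of regions without reads was 5 of 14 paternal regions and 4 of 5 maternal ones, where 50.5% of all regions had none. With Peg3 and Ipw set aside it was 3 of 4 paternal regions. The WT median was 61 reads over the 14 paternal regions and 41 over the maternal ones.

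A wider list of genes known to be imprinted in the mouse holds 33 paternally and 29 maternally expressed genes, of which 8 and 9 had a listed region. The 6 genes above are among these and were taken from the listed ones, so the other genes of the list are counted here on their own. Of these, 11 of 56 were listed (19.6%), 4 of 29 paternally expressed and 7 of 27 maternally expressed. This is near the 15.8% of 21900 RefSeq protein-coding genes that had a listed region, though the imprinted list also holds noncoding genes. Of the 11, 9 were at least 10-fold lower in Gsk-3 DKO and 3 had 0 reads there in the deepest region, beside the 55.6% and 46.2% of all genes given above. Their median log2 of Gsk-3 DKO over WT was -4.33 over the 4 paternal genes (-6.92 to -3.97) and -4.68 over the 7 maternal ones (-7.61 to -2.35). Among the 4, the value of Airn comes from a region that also overlaps the start of the maternally expressed Igf2r. With the 6 genes included, the medians were -4.33 over 8 paternal genes and -5.54 over 9 maternal ones. Both ranges lie across the median of all genes.

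Among the paternally expressed genes outside the 6, Plagl1, a zinc finger factor, had 7 reads in Gsk-3 DKO and 142 in WT in a coding exon on chromosome 10 (16.7-fold, 7.91 to 42.4). The 4 coding regions of Zdbf2 had 4, 0, 0 and 0 reads in Gsk-3 DKO and 38, 39, 60 and 73 in WT, in order of distance from the start. Nnat, a small membrane protein gene inside Blcap, had 4 in Gsk-3 DKO and 86 in WT in its 3'UTR (17.7-fold, 6.68 to 66.6). Airn, the antisense RNA that silences the paternal Igf2r, had 1 read in Gsk-3 DKO and 46 in WT in a region shared with the start of Igf2r, and 0 in Gsk-3 DKO and 28 in WT in an intron.

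Among the maternally expressed ones, Igf2r, the receptor that clears Igf2, had 2 reads in Gsk-3 DKO and 141 in WT in a coding exon on chromosome 17 (58.1-fold, 15.8 to 485). Tssc4 lies in the same chromosome 7 domain as Kcnq1 and Cdkn1c. Its 5 regions, from upstream of the start to 1450 bases past it, had 0, 0, 0, 0 and 3 reads in Gsk-3 DKO and 82, 118, 15, 113 and 63 in WT. Kcnq1, a potassium channel gene, had 1 read in Gsk-3 DKO and 220 in WT in an intron (181-fold, 32.2 to 7199). Summed, the regions of Tssc4 gave a 107-fold difference (36.5 to 524). Tssc4 and Kcnq1 thus each had 3 or fewer reads in Gsk-3 DKO, where the median over all listed regions was 0 reads per region. Gnas, a G protein subunit gene, had 3 in Gsk-3 DKO and 51 in WT (14.0-fold, 4.53 to 70.2). Its region overlaps an intron and the 3'UTR, 61036 bases from the start. RefSeq gives Gnas several starts, and which of its transcripts gave these reads was not tested. The noncoding RNA gene Rian had 2 in Gsk-3 DKO and 15 in WT (6.19-fold, 1.44 to 55.7). Ppp1r9a had 0 and 1 reads in Gsk-3 DKO and 20 and 34 in WT in 2 introns, and Trappc9 had 0 in Gsk-3 DKO and 15 in WT, the lowest WT count in the table.

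**Figure D5:**
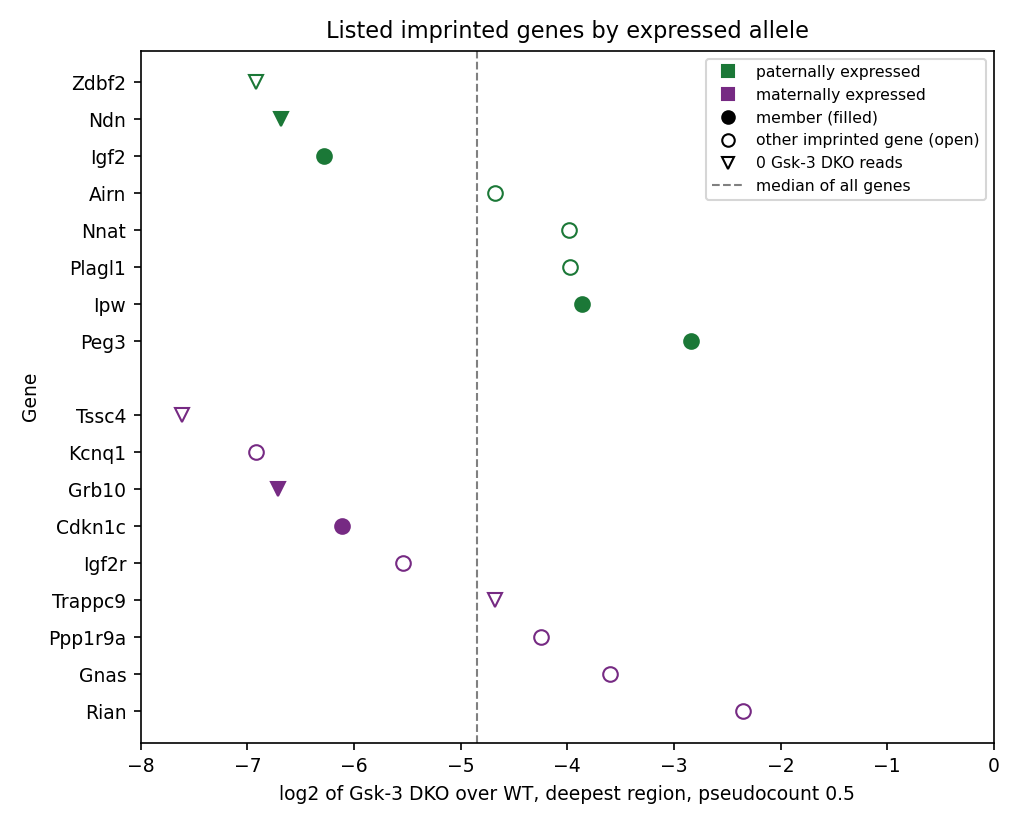
Log2 of Gsk-3 DKO over WT in the deepest region (pseudocount 0.5) for the 17 listed imprinted genes, paternally expressed above and maternally expressed below, 1 library per genotype. Filled symbols are the 6 genes described in detail, triangles have 0 Gsk-3 DKO reads and the dashed line is the median of all genes (-4.85); both groups lie on either side of it.

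Of 14 genes that act on imprints or DNA methylation, 5 were listed (35.7%), beside 15.8% of RefSeq protein-coding genes. Of these 5, 2 were at least 10-fold lower in Gsk-3 DKO (55.6% of all genes were). Dnmt1, the maintenance DNA methyltransferase, had 0 reads in Gsk-3 DKO and 37 in WT in a coding exon, at least 10.2-fold lower. Tet3, a dioxygenase that oxidises methylcytosine, had 20 in Gsk-3 DKO and 265 in WT over 4 regions (10.9-fold, 6.93 to 18.2). Zfp57, which guards imprints in the early embryo, had 8 in Gsk-3 DKO and 61 in WT (6.29-fold, 3.0 to 15.2). Uhrf1, the partner of Dnmt1, had 5 in Gsk-3 DKO and 53 in WT (8.74-fold, 3.52 to 28.0). The cofactor gene Dnmt3l had 0 in Gsk-3 DKO and 25 in WT in an upstream region shared with Aire. Their median log2 of Gsk-3 DKO over WT was -3.31, beside -4.85 over all genes and -4.68 over the 17 imprinted genes.

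Marker genes of the cell types that such a culture could hold were listed as well, where 15.8% of RefSeq protein-coding genes had a listed region. Of 10 pluripotency markers 4 were listed (Pou5f1, Esrrb, Lin28a and Utf1), with summed counts of 19 in Gsk-3 DKO and 307 in WT. Nanog and Sox2 had no listed region. The only regions of Lin28a (0 reads in Gsk-3 DKO, 19 in WT) and Utf1 (1 in Gsk-3 DKO, 46 in WT) lay upstream of the gene. The deepest Esrrb region (7 in Gsk-3 DKO, 146 in WT) lay in an intron. Pou5f1 had 6 in Gsk-3 DKO and 55 in WT in a coding exon. Which transcripts gave the upstream and intron reads was not tested. The 7 listed of 10 primitive endoderm markers had 524 reads in Gsk-3 DKO and 4692 in WT. Most of these were in Lamc1 (290 in Gsk-3 DKO, 2760 in WT), Col4a1 (134 and 957) and Lama1 (73 and 629). The others had few, namely Sparc (10 in Gsk-3 DKO, 103 in WT), Gata6 (8 and 59), Sox7 (7 and 121) and Sox17 (2 and 63). The 6 of 10 mesoderm markers had 3 in Gsk-3 DKO and 544 in WT, and the 4 of 10 fibroblast markers 7 in Gsk-3 DKO and 1637 in WT. Of 10 trophoblast markers 3 were listed, with 3 reads in Gsk-3 DKO and 104 in WT. Thbs1 alone gave all 7 Gsk-3 DKO reads and 1302 of the 1637 WT reads of the fibroblast markers. Igf2, Cdkn1c, Ndn and Grb10 together had 2 reads in Gsk-3 DKO and 593 in WT. Of all listed regions 50.5% had 0 Gsk-3 DKO reads, so low counts there are common in the table. The part of cell makeup in the values of the imprinted genes was not tested.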

How the data were processed

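The deposited table gives a count of reads per region for WT and Gsk-3 DKO. Its headers name the genotype only, and the columns were matched to the m6A libraries by the titles in the labels. Whether the deposited counts were scaled is not given in the sources used here. The submitters' processing notes name Bowtie2, DESeq and mm9 without a role, and the peak caller is not given in the sources used here. The deposited enrichment ratio equals the WT count over the Gsk-3 DKO count times 0.825, and the deposited read density, a signal, equals the WT count per base of region. Coordinates are as deposited: all 19 member regions lie inside their gene in RefSeq GRCm38.p6, and 99.9% of 6035 rows with a RefSeq gene lie within 5000 bases of it, so coordinates are given as GRCm38 although mm9 is named. Promoter sequences are RefSeq's, of build GRCm38.p6.

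Each distinct region was used once (6697 from 7562 rows). The region with the highest mean count stood for a gene. Intervals are exact Poisson for counts and exact Clopper-Pearson for ratios and shares (SciPy 1.17.1), checked on simulated data. The replicate unit is the library, 1 per group, so no p-value was computed. The text names every region of the 6 genes, every listed gene of the imprinted and regulator lists, and for each member the 2 genes nearest in counts, with predicted genes, genes of those 2 lists and genes sharing a member region left out. The markers are 5 lists of 10 genes. Of the 62 imprinted genes 61 matched a RefSeq symbol. Members and lists were chosen with earlier results of these data known.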

Additional observations from a re-analysis of the deposited data

How the results depend on the processing

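No paired analysis was possible because each group is 1 library, and for the same reason no library could be left out. Leaving out Ipw or regions shared with other genes, and the imprinted list without the 6 genes, were chosen after seeing the data. The number of member regions without Gsk-3 DKO reads (9) was 4 among the 13 at or above the median mean count, where fewer regions were counted. The number at least 10-fold lower (16) was 13 with the floor at 3.69 reads and 0 with a median-ratio factor, which enters every value directly. The median log2 of Gsk-3 DKO over WT over the 19 regions (-5.53) was -6.37 with a pseudocount of 0.25, -4.15 with 2, -5.81 without the constant, -1.77 with the median-ratio factor, -6.06 with every row of the table and -5.78 without Ipw. By gene, Peg3 (-2.84) was -3.79 with summed regions and -4.71 as the mean over its regions. Grb10 (-6.71) was -7.22 with summed regions. The median-ratio factor turned the sign of Peg3 (0.93). Of the 17 imprinted genes 3 lay above 0 with it. The difference of medians, paternal minus maternal (1.34), was 1.83 and 0.65 with pseudocounts of 0.25 and 2, 0.94 over every region, 1.75 with summed regions, 1.04 without Grb10 and 0.13 without Ipw. The median of the imprinted list (-4.68) was -5.27 with summed regions, -5.83 in exonic regions and -3.85 with a pseudocount of 2. What sets the summed, exonic and reduced sets apart was not tested. Depth limits the ratios most where Gsk-3 DKO had 0 to 4 reads, as in 17 of the 19 regions.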
